A study of Mus musculus with 6 samples.

Results

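The 38 genes described here are Hox genes of the 4 mammalian clusters, taken from a fixed list of symbols and located in the GENCODE annotation of mm9, which holds 22271 protein-coding genes. HoxA contributed 10 genes on chromosome 6, HoxB 10 on chromosome 11, HoxC 9 on chromosome 15 and HoxD 9 on chromosome 2. The list goes by gene symbol, with no threshold on a measured value. Acetylation of lysine 5 on histone H4 (H4K5ac) was mapped by ChIP-Seq in whole hippocampus of C57/BL6 mice, for which the labels give an age of 6 months. For each of the 2 groups there were 3 libraries: chromatin pulled down by anti-H4K5ac (H4K5ac-ChIP), a mock pull-down by IgG (IgG-IP) and genomic DNA taken before pull-down (input). FC mice were trained by contextual fear conditioning with a foot shock, CON mice were exposed to the context only, and the tissue came from mice that had then been tested for memory of the context. According to the methods, chromatin was prepared from several hippocampal samples per group, but the data held 1 library per group and antibody, which is 6 libraries in all. There were therefore no replicates. No test between animals was possible, no p-value is given, and the intervals below cover counting error only.

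Hox genes encode homeodomain transcription factors that give cells of the embryo their position along the body axis. They lie side by side in clusters, in the same orientation, and their order in a cluster matches the order of their expression domains from hindbrain to tail. Paralogue groups are numbered from the 3' end of a cluster, where the genes act earliest and most anteriorly, to the 5' end, whose genes pattern the limb tips, the genital tubercle and the tail. The forebrain, from which the hippocampus arises, forms anterior to the Hox expression domains. Where Hox clusters are silent they are a textbook domain of Polycomb repression, marked by trimethylation of histone H3 lysine 27. H4K5ac is placed by histone acetyltransferases, is bound by bromodomain proteins and is found at transcribed genes. The question put to the data was how much H4K5ac the Hox genes carry in hippocampus, relative to IgG and to other genes, and whether FC and CON libraries differ there.

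Later comparisons turn on 4 members, whose promoters are given here. Each is 300 bases of the mm9 sequence, 250 before and 50 after the annotated transcription start site (TSS), written 5' to 3' on the plus strand, on which these genes lie. Capitals mark the dinucleotide CG, the site of DNA methylation and the hallmark of CpG island promoters. Hoxd1 is shown because its body had the highest H4K5ac, Hoxd13 because its body was the lowest on average over both groups and its promoter differed most between FC and CON, Hoxb13 because its body was the lowest in CON, and Hoxb5 because it was the member lower in FC by body and by promoter.
Hoxd1, chr2:74600787-74601086: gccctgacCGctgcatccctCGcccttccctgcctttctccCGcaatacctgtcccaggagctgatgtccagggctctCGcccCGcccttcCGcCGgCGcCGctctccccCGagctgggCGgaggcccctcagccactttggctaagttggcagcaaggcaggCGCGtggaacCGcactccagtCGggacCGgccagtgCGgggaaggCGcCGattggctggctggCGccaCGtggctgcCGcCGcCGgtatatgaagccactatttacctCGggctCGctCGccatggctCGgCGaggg
Hoxd13, chr2:74506117-74506416: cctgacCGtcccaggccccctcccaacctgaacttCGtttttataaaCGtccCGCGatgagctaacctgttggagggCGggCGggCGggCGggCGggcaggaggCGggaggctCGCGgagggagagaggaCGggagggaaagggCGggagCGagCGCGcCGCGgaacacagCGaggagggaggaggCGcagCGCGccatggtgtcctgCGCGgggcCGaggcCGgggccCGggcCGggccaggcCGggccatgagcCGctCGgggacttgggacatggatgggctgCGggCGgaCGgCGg
Hoxb13, chr11:96055380-96055679: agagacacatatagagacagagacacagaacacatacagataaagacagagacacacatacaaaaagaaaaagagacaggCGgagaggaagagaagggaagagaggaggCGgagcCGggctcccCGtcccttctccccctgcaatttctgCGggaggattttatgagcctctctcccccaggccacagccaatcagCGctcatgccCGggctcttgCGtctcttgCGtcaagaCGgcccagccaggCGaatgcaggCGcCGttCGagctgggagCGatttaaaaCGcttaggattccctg
Hoxb5, chr11:96163659-96163958: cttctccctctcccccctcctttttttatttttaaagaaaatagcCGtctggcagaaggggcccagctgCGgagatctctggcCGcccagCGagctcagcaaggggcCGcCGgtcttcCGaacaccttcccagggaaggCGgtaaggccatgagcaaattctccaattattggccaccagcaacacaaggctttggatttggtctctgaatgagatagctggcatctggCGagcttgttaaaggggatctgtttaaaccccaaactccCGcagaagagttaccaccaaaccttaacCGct
The windows of Hoxd13 and Hoxd1 held 37 and 29 CG at 74.0% and 69.7% GC, and those of Hoxb13 and Hoxb5 held 16 and 11 at 55.3% and 53.0%. Over all 38 members the number of CG in this window ranged from 2 to 47 with a median of 13, against a median of 11 over all protein-coding genes. Every member held at least 1 CG, as did 95.1% of all promoters of this length. Hox bodies were GC-rich, with a median of 52.1% against 45.6% for all genes, and Hox promoters of 2 kb had 49.2% against 46.1%. Of the 4 windows, the richest in CG were thus those of Hoxd1 and Hoxd13, the highest and the lowest body by the mean ratio over IgG of both groups, while that of Hoxb13, the lowest in CON, held fewer.

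Sequencing gave 31605738 H4K5ac-ChIP, 14549689 IgG-IP and 45673239 input reads in FC, and 35962226, 16491741 and 35493806 in CON. The IgG-IP libraries had the fewest reads. Over the Hox bodies H4K5ac reads were about as sparse, with 1493 beside 1562 of IgG in CON, so both libraries limited the ratios over IgG. As a check of the tissue, 14 of 16 forebrain and hippocampal factors had H4K5ac above IgG in their bodies in both groups. Of all gene bodies, 25.7% in FC and 27.4% in CON were below IgG. Zbtb20, a determinant of hippocampal pyramidal neurons, had log2 ratios of 0.98 in FC and 0.97 in CON, and Prox1 of dentate granule cells 1.17 and 0.50. The exceptions were Neurod6, a cortical neuron factor, at -0.81 and -0.71, and Lhx9, a LIM homeodomain factor, at 0.01 and -0.55. Of 12 genes restricted to other tissues, 5 were below IgG in both groups (Afp and Alb of liver, Ins2 of pancreatic islets, Amelx of enamel and Umod of kidney), with Alb at -1.04 and -0.83. Krt5, Krt14 and Prm1 were above it in 1 group. The other 4, the cardiac myosin gene Myh6 at 0.98 and 0.58, the pancreatic gene Cpa1 at 1.16 and 0.78, Apoa1 of liver and gut at 0.99 and 1.13, and the gut mucin gene Muc2 at 0.46 and 0.28, were above IgG in both. The ratio thus did not separate all forebrain genes from all genes of other tissues. Nor did the forebrain list stand out from genes in general, with body medians of 0.65 and 0.70 against 0.67 and 0.58. Over input, its median was -0.07 in FC, with 9 of 16 below 0, and 0.50 in CON, with 2 of 16 below 0.

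H4K5ac was low over the bodies of Hox genes in both groups. The bodies of the 38 genes, merged into 32 stretches of 275.7 kb, held 1697 H4K5ac reads in FC, a density of 0.195 reads per kb and per 1000000 reads (RPKM, 95% exact Poisson interval 0.186 to 0.204). In CON they held 1493 reads, or 0.151 RPKM (0.143 to 0.158). IgG-IP gave 0.327 RPKM in FC and 0.344 in CON over the same stretches, and input gave 0.523 and 0.394, while the mean over the genome was 0.393 to 0.395 in each library. Hox bodies thus held less than the genome mean of H4K5ac, and less than IgG. The log2 ratio of depth-scaled H4K5ac over IgG reads was -0.75 in FC (95% exact binomial interval -0.85 to -0.64) and -1.19 in CON (-1.29 to -1.09) for the summed reads, or 0.595 and 0.438 on the linear scale. In whole tissue, fewer cells with the mark and less of the mark per cell cannot be told apart.

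Gene by gene, 22 of 38 bodies in FC were at least 1.5-fold lower in H4K5ac than in IgG with at least 10 reads in both libraries together, a rule that 15.8% of protein-coding genes met. In CON, 33 of 38 did so, against 16.5% of all genes. No Hox body was 1.5-fold higher in either group, compared with 54.0% of all genes in FC and 49.8% in CON. The median log2 ratio of the members was -0.68 in FC and -1.20 in CON, and that of all genes was 0.67 and 0.58. In both groups 36 of 38 members were below 0, against 25.7% of all genes in FC and 27.4% in CON. The 95% interval lay wholly below 0 for 16 members in FC and 28 in CON, against 16.6% and 17.8% of all genes. It lay wholly above 0 for no member, against 62.4% and 60.2%. Of the 38, 18 were past 1.5-fold lower in both groups, against 12.9% of all genes, and in CON the members that were not were Hoxa11, Hoxb5, Hoxb7, Hoxc11 and Hoxd1. The ratio was higher in FC than in CON for 29 of 38 bodies and for 63.6% of all genes. Of the H4K5ac reads within the clusters, 78.5% to 85.3% had a mapping quality of at least 20, compared with 91.7% and 92.7% over the genome in FC and CON and with 86.8% to 93.2% of the IgG and input reads within the clusters. With such reads only, the body medians were -0.91 and -1.44. Bodies of 9 members overlap that of another member, and the annotated Hoxa3 runs over Hoxa4, Hoxa5 and Hoxa6, so that their reads were counted in more than 1 gene. The ratios over IgG of single members are plotted by cluster and paralogue group.

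**Figure D1:**
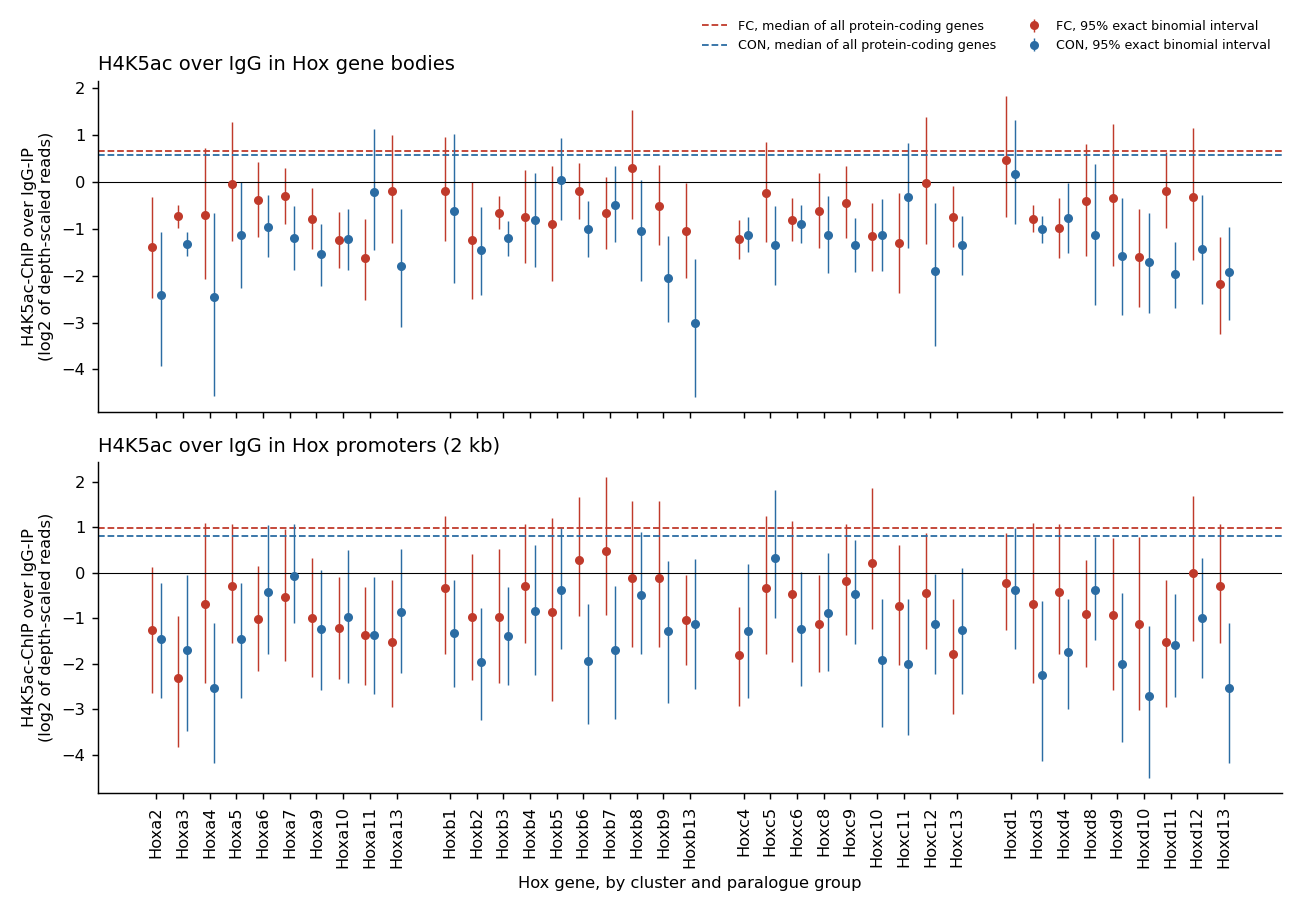
H4K5ac-ChIP relative to IgG-IP (log2 ratio) for each of the 38 Hox genes (x axis, by cluster and paralogue group), in gene bodies (top) and promoters of 2 kb (bottom), for FC (red) and CON (blue), with 95% exact binomial intervals. Dashed lines are the medians of all protein-coding genes, at 0.67 and 0.58 for bodies and 0.98 and 0.80 for promoters, and 36 of 38 bodies lie below 0 in each group.

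At the 3' end of the clusters lie the genes of hindbrain and neck identity. Hoxa2, which specifies the second pharyngeal arch, held 15 reads of H4K5ac in FC and 7 in CON, 18 and 17 of IgG, and 81 and 51 of input. It was the lowest body of HoxA by the mean of both groups, with log2 ratios over IgG of -1.38 (-2.47 to -0.31) in FC and -2.40 (-3.92 to -1.06) in CON. Hoxb1, which gives rhombomere identity to the hindbrain, held 23 and 10 H4K5ac reads and 12 and 7 IgG reads, giving -0.18 (-1.25 to 0.96) and -0.61 (-2.15 to 1.02). Hoxc4, the most 3' gene of HoxC, had a long body with 94 and 120 H4K5ac and 101 and 120 IgG reads. Its ratios of -1.22 (-1.64 to -0.80) and -1.12 (-1.50 to -0.75) were the lowest mean of that cluster and nearly the same in both groups.

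Hoxd1, the most 3' gene of HoxD, stood apart. Its body of 2164 bp held 24 H4K5ac reads in FC and 27 in CON, 8 and 11 of IgG, and 36 and 30 of input. Its densities of 0.351 RPKM in FC and 0.347 in CON were the highest of all members. The ratios over IgG were 0.47 (-0.74 to 1.83) and 0.17 (-0.89 to 1.33), the only ones above 0 in both groups, but their intervals reached well below 0. Against input, which has more reads, Hoxd1 was at -0.05 (-0.86 to 0.73) and -0.17 (-0.98 to 0.63), where the medians of the members were -1.41 and -1.47. Other members came as near to input in 1 group, Hoxd8 at 0.00 (-0.95 to 0.92) in FC and Hoxb5 at -0.23 (-0.90 to 0.43) in CON, but were at -2.10 and -1.91 in the other. With FC and CON reads pooled, the flank beyond Hoxd1 stayed below IgG for 20 kb.

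Among the central genes, Hoxa5, required for lung and thoracic skeleton, was the highest body of HoxA in FC and by the mean of both groups, at -0.04 (-1.26 to 1.29) in FC and -1.12 (-2.26 to 0.01) in CON, where Hoxa11 was higher, at -0.21. Hoxb8, known for grooming behaviour and its expression in blood progenitors, was the highest of HoxB in FC and by that mean, at 0.31 (-0.78 to 1.53) and -1.04 (-2.11 to 0.04), whereas Hoxb5 was the highest in CON. Its 27 H4K5ac reads in FC stood beside only 10 of IgG. Hoxc5 was the highest mean of HoxC, at -0.23 (-1.27 to 0.86) and -1.35 (-2.20 to -0.51). All 3 genes were near IgG in FC, with intervals that held 0, and lower in CON.

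At the 5' end lie the genes of the posterior body and limb. Hoxd13, which patterns digits, held 13 and 15 H4K5ac reads in FC and CON, 27 and 26 of IgG, and 50 and 33 of input. Its ratios of -2.17 (-3.25 to -1.17) and -1.92 (-2.94 to -0.95) were low in both groups, and its IgG density, 0.564 and 0.479 RPKM, was the highest of the members in each group. Over input, Hoxd13 was at -1.41 (-2.42 to -0.51) and -1.16 (-2.14 to -0.24), close to the other members. Hoxb13, active in tail and prostate, held 19 H4K5ac reads in FC and 6 in CON, with 18 and 22 of IgG and 91 and 65 of input. It was at -1.04 (-2.05 to -0.03) in FC and at -3.00 (-4.59 to -1.65) in CON, the lowest ratio of any member. Hoxa13, a gene of limb and genital development, was at -0.19 (-1.30 to 1.01) and -1.80 (-3.10 to -0.57), and Hoxc13, which acts in hair and nail, at -0.74 (-1.39 to -0.08) and -1.35 (-1.99 to -0.72). All 4 genes of group 13 were below 0 in both groups.

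Position in the cluster went with H4K5ac only loosely. Groups 1 to 4, with 11 genes, had body medians of -0.75 in FC and -1.12 in CON, groups 5 to 8, with 11, had -0.39 and -1.04, and groups 9 to 13, with 16, had -0.76 and -1.56. These classes were drawn after values were seen and their ranges overlapped widely. Spearman's rho between paralogue number and the ratio over IgG was -0.09 in FC and -0.38 in CON over 38 genes, and was -0.09 and 0.02 for promoters. The ratios of FC and of CON, which come from separate libraries, had a rho of 0.04 across the 38 bodies and 0.04 across the promoters. The order of members within the low range thus did not carry over from one group to the other. These points share libraries, some neighbouring genes share reads, and few reads lie behind most of them. For 34 of 38 bodies in FC the interval held the ratio of the summed reads, the exceptions being Hoxa11, Hoxc4 and Hoxd13 below and Hoxd1 above it. In CON it did for 34 as well, with Hoxb5 and Hoxd1 above and Hoxb13 and Hoxd11 below.

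Promoters were low as well, with fewer reads. The 2 kb upstream of a Hox TSS held 6 to 24 H4K5ac reads in FC with a median of 12.5, and 5 to 25 in CON with a median of 11. Over all protein-coding genes the medians were 40 and 43. The paper took more than 50 reads as above average, judged against its own average promoter count. In the 2 kb promoters used here, 36.1% of all genes in FC and 40.7% in CON met this rule. Of the 38 Hox promoters, 0 did in either group. With promoters of 5 kb, the width in the paper's map of read distribution, 72.6% of genes met it in FC and 75.3% in CON. Of the members only Hoxd1 did, in FC, with 52 reads. At that width the medians over all genes were 88 and 98 reads, so the rule did not mark promoters above average there. Relative to IgG, 21 of 38 Hox promoters in FC were at least 1.5-fold lower, against 16.6% of all promoters, and 30 in CON, against 18.0%. None was 1.5-fold higher, compared with 62.1% and 57.7% of all promoters. The medians were -0.72 and -1.29, and those of all promoters 0.98 and 0.80. In 13 members, both body and promoter were past 1.5-fold lower in both groups, as in 7.34% of all genes. The promoters of 15 members overlap the body of another member, so some reads were counted in both.

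The promoters were ranked within each cluster by the mean of both groups, and the order in a single group differed. Hoxa3 had the lowest promoter of HoxA, with 7 and 6 H4K5ac reads beside 16 and 9 of IgG, giving -2.31 (-3.84 to -0.95) in FC and -1.71 (-3.48 to -0.06) in CON. Since the annotated Hoxa3 runs over Hoxa4 to Hoxa6, this window lies beyond Hoxa6 and overlaps the body of Hoxa7. Hoxd10, which contributes to lumbar motor neuron identity, had the lowest of HoxD, with 6 and 5 H4K5ac reads beside 6 and 15 of IgG, giving -1.12 (-3.02 to 0.78) and -2.71 (-4.52 to -1.18). Hoxb2, a hindbrain gene, was lowest in HoxB at -0.98 and -1.97, and Hoxc4 in HoxC at -1.81 and -1.28. By the same mean, the highest promoters were Hoxa7 in HoxA, at -0.53 and -0.07, Hoxb8 in HoxB, at -0.12 and -0.49, Hoxc5 in HoxC, at -0.34 and 0.32, and Hoxd1 in HoxD, at -0.23 and -0.39. The intervals of these 4 highest promoters held 0 in both groups.

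At the TSS itself, H4K5ac at Hox genes showed no rise. Within 0.5 kb of the TSS, H4K5ac was at 0.182 RPKM (0.158 to 0.207) in FC and 0.137 (0.118 to 0.158) in CON, beside 0.18 and 0.143 at 5 to 2 kb upstream. In FC it was higher at 0.5 to 2 kb downstream, at 0.226 (0.205 to 0.25), beyond the upstream interval of 0.166 to 0.194. In CON the downstream value was 0.157 (0.14 to 0.175), with an interval that overlapped the upstream one of 0.132 to 0.155. Summed over all protein-coding genes, it was 0.719 and 0.616 within 0.5 kb and 0.493 and 0.483 at 5 to 2 kb upstream. A flat or lower value at the TSS was not particular to Hox genes, since the 16 forebrain factors had 0.455 and 0.335 within 0.5 kb and 0.65 and 0.649 upstream. Their densities were above those of the Hox genes in each zone. IgG dipped at Hox start sites, from 0.375 RPKM upstream to 0.222 in FC and from 0.365 to 0.246 in CON, and input dipped from 0.549 to 0.496 and from 0.42 to 0.322. Within 0.5 kb of the TSS the H4K5ac and IgG densities therefore lay closer together than elsewhere, with overlapping intervals in FC (0.158 to 0.207 and 0.185 to 0.265) but not in CON (0.118 to 0.158 and 0.208 to 0.288). Over all genes, in contrast, IgG reached 1.65 and 1.35 and input 0.668 and 0.891 within 0.5 kb, so that the sum for all genes held more IgG than H4K5ac there. IgG also exceeded H4K5ac over all genes downstream. At 0.5 to 2 kb it was 0.704 against 0.624 in FC and 0.644 against 0.596 in CON. At 2 to 5 kb it was 0.937 against 0.575 and 0.824 against 0.565. Repeats were not masked, and whether a few loci carry these sums was not examined.

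**Figure D2:**
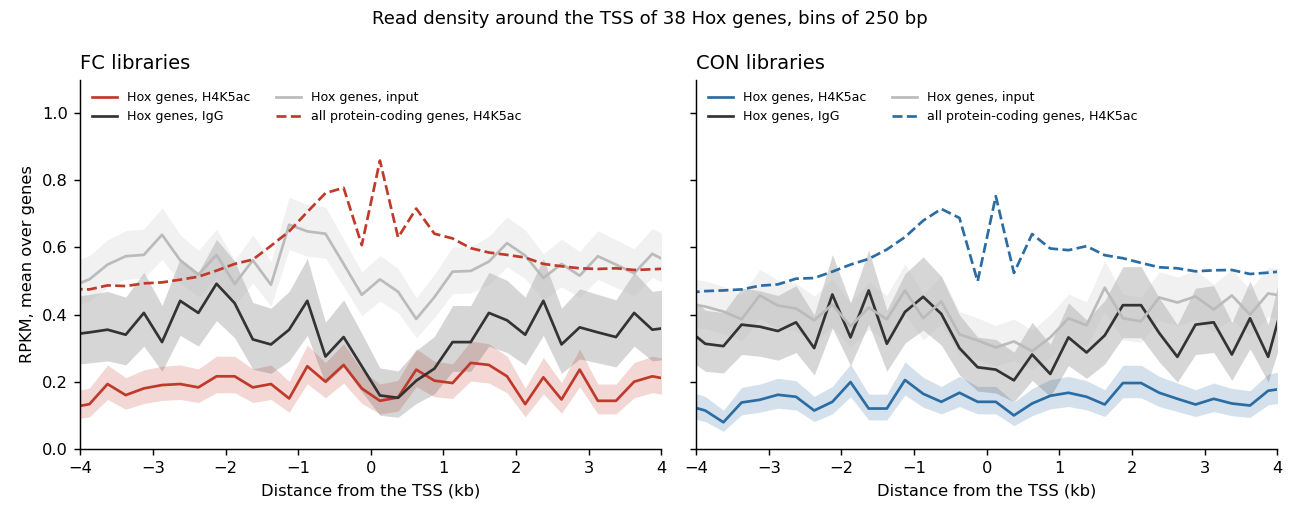
Mean read density (RPKM) in bins of 250 bp by distance from the TSS, for the 38 Hox genes in H4K5ac-ChIP, IgG-IP and input (solid lines, shading the 95% exact Poisson interval) and for all protein-coding genes in H4K5ac-ChIP (dashed), in FC (left) and CON (right). H4K5ac at Hox genes stays below the dashed line in every bin and shows no rise at the TSS.

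Low H4K5ac extended over the whole clusters. Taken from the first to the last listed gene, the 4 clusters span 485 kb: HoxA 98.53 kb, HoxB 173.9 kb, HoxC 115.7 kb and HoxD 96.83 kb. The density of H4K5ac was 0.186 RPKM in HoxA, 0.186 in HoxB, 0.188 in HoxC and 0.194 in HoxD in FC, a narrow range. In CON it was 0.14, 0.137, 0.173 and 0.158. The log2 ratio over IgG of all spans together was, in FC, -0.84 (-0.92 to -0.76) and, in CON, -1.23 (-1.31 to -1.16), and by cluster it ran from -1.0 in HoxC to -0.73 in HoxB in FC and from -1.31 in HoxB to -1.11 in HoxD in CON. Cut into windows of 5 kb, 86 of 92 windows in FC and 92 of 92 in CON were below IgG, against 56.3% and 56.2% of windows of the genome. The 6 windows at or above IgG in FC lay in HoxA, over Hoxa3 and Hoxa6, and in HoxB, over Hoxb3, Hoxb8 and the stretch between Hoxb13 and Hoxb9. Their ratios were 0.03 to 0.69 in FC and -2.27 to -0.76 in CON.

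Over 100 kb, H4K5ac relative to IgG was lower on the 5' side than on the 3' side of each cluster. In the 100 kb on the 5' side of the clusters, beyond the group 13 genes, FC had a log2 ratio of -0.81 (-0.89 to -0.73) and CON one of -0.99 (-1.07 to -0.91), close to the clusters in FC and higher than them in CON. In the 100 kb on the 3' side, beyond the anterior genes, it was -0.08 (-0.15 to -0.01) and -0.17 (-0.24 to -0.10). HoxD had the largest difference between its sides, with -0.80 and -1.11 in the cluster, -0.81 and -1.05 on the 5' side, and 0.15 (0.01 to 0.29) and 0.25 (0.12 to 0.38) on the 3' side. Stepping outward in windows of 5 kb with FC and CON reads pooled, a measure added after seeing the data, the first window at or above IgG came after 20 kb on the 3' side of HoxD, 40 kb for HoxA, and 55 kb for HoxB and HoxC. On the 5' side it came after 40 kb for HoxA, 65 kb for HoxB, 85 kb for HoxD and 100 kb for HoxC, so by this distance the sides were alike in HoxA and near each other in HoxB. The contrast of cluster and flank accordingly rested on the width of the flank: the span less both flanks was -0.44 in FC and -0.72 in CON with flanks of 100 kb, and -0.07 and -0.25 with flanks of 50 kb.

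**Figure D3:**
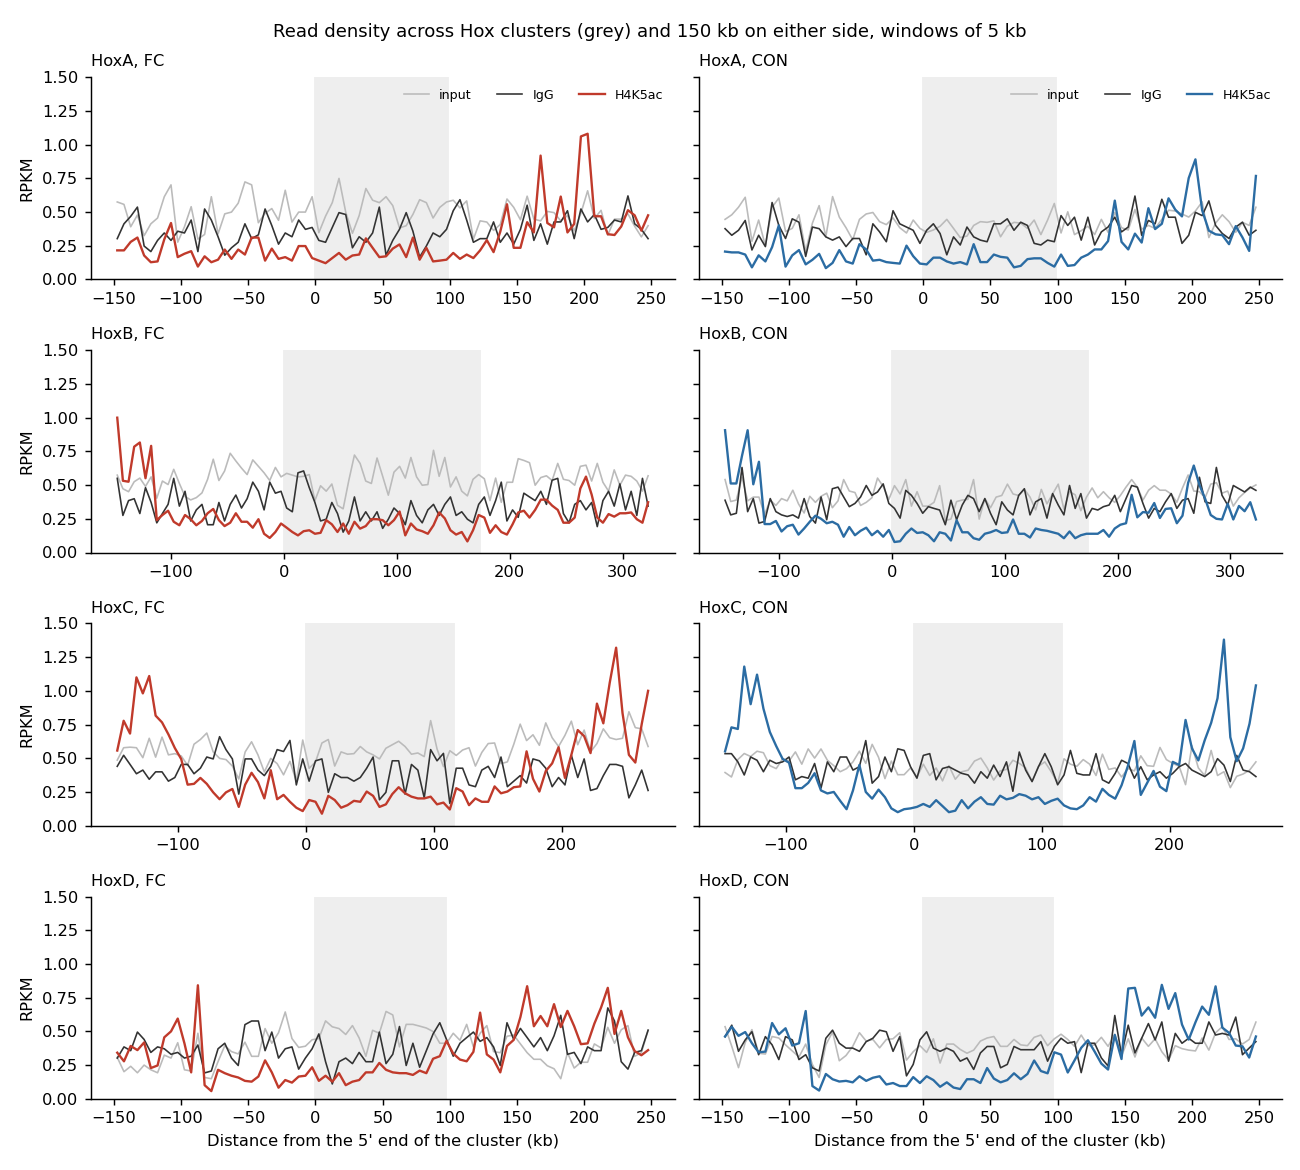
Read density (RPKM) in windows of 5 kb by distance from the 5' end of each cluster, for H4K5ac-ChIP, IgG-IP and input in FC (left) and CON (right), with the cluster shaded and 150 kb on either side. H4K5ac lies below IgG in 87 of the 95 plotted windows that fall wholly within a cluster in FC and in 95 of 95 in CON, counted from each cluster's end and not on the genome grid of the 92 windows.

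Of the genes next to the clusters, those nearest the 5' ends were low. Evx1 and Evx2, even-skipped homeobox genes at the 5' ends of HoxA and HoxD, were at -0.81 (-1.62 to 0.01) and -0.83 (-1.61 to -0.04) in FC and at -0.75 (-1.73 to 0.25) and -0.99 (-1.91 to -0.07) in CON. On the 5' side of HoxB, Ttll6, a tubulin glutamylase gene, was at -0.64 and -1.12 and Calcoco2, an autophagy receptor gene, at -0.44 and -0.43. Lnp, a gene of the endoplasmic reticulum at the far 5' side of HoxD, was at 0.06 (-0.13 to 0.26) and 0.16 (-0.01 to 0.34). Mtx2, a gene of mitochondrial import on the 3' side of HoxD, was at 0.45 (0.26 to 0.65) and 0.52 (0.36 to 0.70), the highest of the flank genes. Skap1, a T cell adaptor gene on the 3' side of HoxB, was at -0.26 and -0.42. These ratios are for whole bodies, and those of Skap1 and Lnp lie mostly beyond the 100 kb flank. The short Gm17649, at the HoxC 5' edge, held at most 1 read in each immunoprecipitated library, too few for a ratio.

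The clusters also carry microRNA genes. The mature miR-10 and miR-196 families are shown with their seeds (bases 2 to 8) in capitals, from RefSeq (GRCm38.p6), because members in different clusters share a seed:
miR-10a-5p (HoxB): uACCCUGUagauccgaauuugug
miR-10b-5p (HoxD): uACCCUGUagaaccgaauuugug
miR-196a-5p (HoxB and HoxC): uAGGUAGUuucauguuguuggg
miR-196b-5p (HoxA): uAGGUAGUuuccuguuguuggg
All 6 loci sought were found: Mir10a, Mir10b, Mir196a-1, Mir196a-2, Mir196b and Mir615. Each hairpin with 1000 bp on either side held 10 to 16 H4K5ac reads in FC and 5 to 17 in CON, with 4 to 23 of IgG in FC and 9 to 15 in CON. The ratios over IgG were -0.83 and -1.97 at Mir10a and -0.98 and -1.12 at Mir10b in FC and CON. Mir196b, which lies within the annotated body of Hoxa9, was at 0.30 (-1.13 to 1.94) in FC and -2.0 (-3.72 to -0.44) in CON. Mir615 was at 0.79 (-0.86 to 2.84) and -1.45 (-2.67 to -0.25). It lies within the annotated body of Hoxc5, Mir10a within that of Hoxb4, and Mir10b within those of Hoxd4 and Hoxd3. Reads at these loci and at Mir196b were thus also counted in Hox bodies. In CON all 6 were below IgG, and in FC 4 of 6 were. Of the wider 5 kb windows of the genome, 56.2% in CON and 56.3% in FC were below it. Mir196a-1 and Mir196a-2, which share a mature sequence, were at -0.60 and -1.94 in FC and -1.50 and -0.50 in CON.

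Set beside other gene lists, the Hox genes were near other developmental factors that are silent in forebrain. A list of 16 such factors outside the clusters, among them Pax3, Pax9, Gata4 and Foxa2, had a body median of -0.68 in FC and -0.96 in CON, with 9 and 11 of 16 past 1.5-fold lower. Its lowest gene was Pax9, at -1.67 and -2.01, and its highest Myod1, at 1.13 and 0.27. Foxd3 had 15 H4K5ac and no IgG reads in FC, and therefore no ratio there. The 2 Even-skipped genes had medians of -0.82 and -0.87. The 6 ParaHox genes, the sister group of the Hox genes outside the clusters, had 0.06 and -0.70 (-0.95 and -0.73 over input). Pdx1 was the lowest of these 6 in both groups, at -1.15 and -1.56, and the highest was Gsx2 in FC, at 0.81, and Cdx1 in CON, at 0.18. The 12 genes restricted to other tissues had -0.29 and 0.08, ranging in FC from Alb at -1.04 to Cpa1 at 1.16. Olfactory receptor genes lay lower still, at -1.53 over the 753 of 1113 with enough reads in FC and -1.71 over 767 in CON. The list medians with their 10th to 90th percentiles are plotted for bodies and promoters.

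The partners and regulators of Hox proteins had H4K5ac above IgG in the gene body, by the median of each list, as did protein-coding genes in general, with medians of 0.67 and 0.58. TALE homeodomain cofactors, the Pbx, Meis and Pknox proteins that bind DNA with Hox proteins, had medians of 0.82 in FC and 0.55 in CON over 9 genes, from Meis1 at 0.41 and 0.17 to Pbx2 at 2.15 and 1.59. Of the 9 bodies, 6 were past 1.5-fold higher in FC and 4 in CON, shares near the 54.0% and 49.8% of all genes, and none was lower. The 16 Polycomb genes had medians of 1.16 and 0.91, with 11 and 13 past 1.5-fold higher and none lower, and among them Eed was at 0.17 and 0.23 and Cbx6 at 1.73 and 1.83. The 7 Trithorax genes found under the names used had 1.09 and 0.91, all past 1.5-fold higher, from Mll3 at 0.75 to Mll2 at 1.46 in FC. The 16 forebrain and hippocampal transcription factors had 0.65 and 0.70, with Klf9 the highest in FC, at 1.67. Neurod2 was the highest in CON, at 2.08. Among the 10007 protein-coding genes whose bodies lie in the GC range of the Hox genes, the medians were 1.07 and 0.87, and 5.14% and 6.71% of those with enough reads were past 1.5-fold lower. Over IgG, the Hox medians thus lay farther from those of genes of similar GC content than from those of all genes. Over input, genes of similar GC content had medians of 0.20 in FC and 0.67 in CON, and all genes 0.18 and 0.45. Past 1.5-fold lower were 15.8% and 8.96% of the former, and 21.6% and 19.1% of all genes. Polycomb genes had 0.49 and 0.76 over input, with 4 and 11 past 1.5-fold higher. Trithorax genes had 0.32 and 0.77, with 2 and 7, against 22.3% and 40.9% of all genes.

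**Figure D4:**
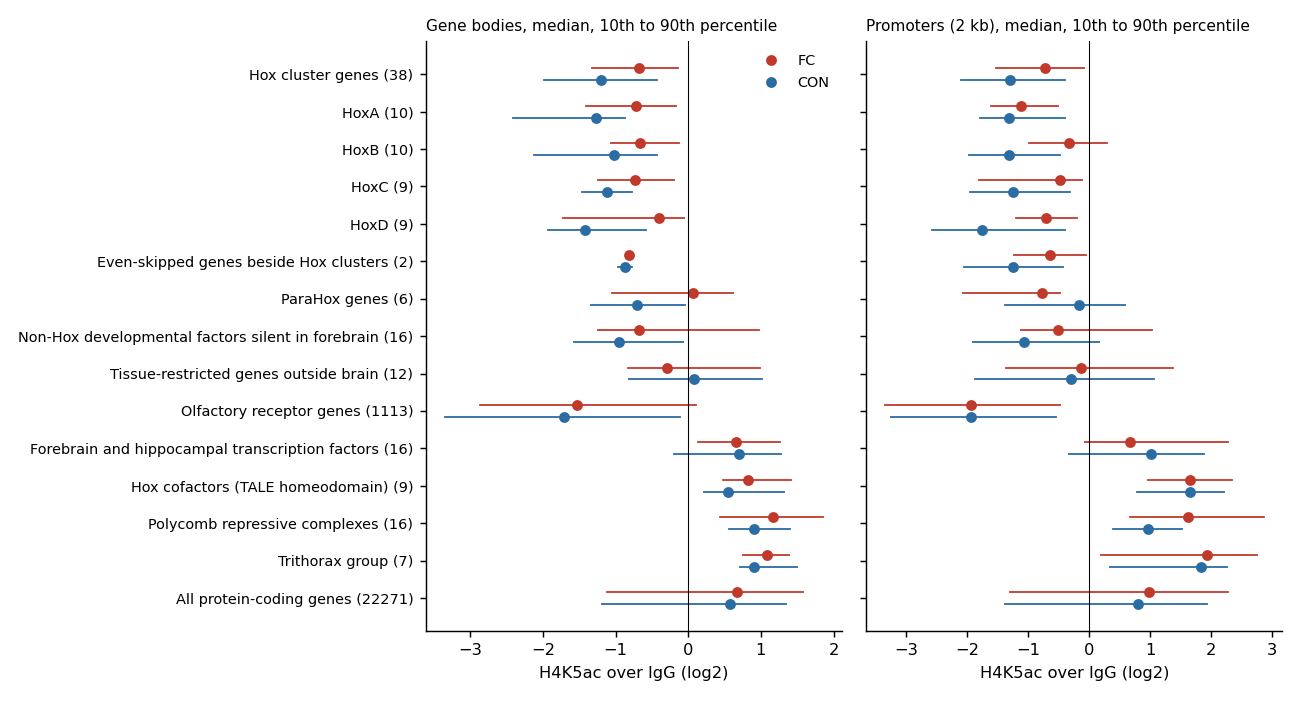
Median log2 ratio of H4K5ac over IgG (points) with the 10th to 90th percentile (lines) for the Hox genes, each cluster and comparison lists, the number of genes in parentheses, in bodies (left) and promoters (right), FC in red and CON in blue. Hox clusters lie below 0 (all Hox bodies -0.68 and -1.20), while the medians of cofactor, Polycomb and Trithorax genes lie above 0.

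Between groups, H4K5ac at Hox genes was somewhat higher in FC than in CON, and so was input. For the summed reads of the bodies, the log2 ratio of FC over CON was 0.37 (0.27 to 0.47) in H4K5ac-ChIP, a fold of 1.29. It was 0.41 (0.35 to 0.47) in input, a fold of 1.33, and -0.07 (-0.18 to 0.04) in IgG-IP. For the promoters it was 0.37 (0.18 to 0.56), 0.53 (0.42 to 0.64) and -0.09 (-0.28 to 0.11). By body, 32 of 38 members were higher in FC in H4K5ac-ChIP and 34 of 38 in input. Of all gene bodies, 41.4% were lower in FC in H4K5ac-ChIP and 27.5% in input. In H4K5ac-ChIP, 13 bodies were at least 1.5-fold higher in FC, against 4.82% of all genes, and 1 lower, against 2.01%. In promoters, 16 were higher, against 11.4%, and 2 lower, against 6.77%. The median of the members was 0.44 in bodies and 0.42 in promoters, and that of all genes 0.04 and 0.09. In input, the member medians were 0.39 and 0.47, those of all genes 0.31 and 0.28, and those of genes in the GC range of the Hox genes 0.57 and 0.41.

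With the log2 change of input subtracted gene by gene, the Hox medians were 0.02 in bodies and -0.06 in promoters, where those of all genes were -0.25 and -0.20. After this step, 6 bodies were past 1.5-fold higher in FC and 4 lower, against 6.05% and 16.8% of all genes, and 7 promoters higher and 12 lower, against 13.5% and 27.8%. The H4K5ac change was above that of input in 20 of 38 bodies and 17 of 38 promoters. The share of all genes was not counted, but their medians of -0.25 and -0.20 lay below 0. With the change of IgG subtracted instead, the Hox medians were 0.57 in bodies and 0.39 in promoters, and those of all genes 0.10 and 0.17. By this measure, 19 bodies were past 1.5-fold higher in FC and 3 lower, and 17 promoters higher and 4 lower. Of all genes, 11.8% of bodies and 31.7% of promoters were higher. The shares of all genes called lower by this measure were not counted, so the lower counts have no comparison. The Hox difference thus depended on the control subtracted. The part of the input difference in the H4K5ac difference was not tested, and without a second library the difference between groups and the difference between libraries cannot be told apart. Genes of low H4K5ac also had wider folds in general: with all genes ranked by ratio over IgG and cut into 10 equal classes, the lowest class held 17 of the members, and 18.7% of its genes were 1.5-fold higher in FC, with a median of 0.14. In the next class, with 20 members, these were 7.72% and 0.02. This ranking was made after values were seen, and the genes of these classes had a lower GC content than Hox genes, 40.3% and 43.0%, and input medians of -0.23 and 0.10. Both the FC ratio over IgG and the FC over CON ratio contain the FC H4K5ac library, so they are not independent measures.

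The bodies past 1.5-fold higher in FC were Hoxa2, Hoxa4, Hoxa7, Hoxa9, Hoxa13, Hoxb1, Hoxb6, Hoxb8, Hoxb9, Hoxb13, Hoxc12, Hoxd8 and Hoxd11. The largest body ratios rested on few reads. Hoxb13 had 19 H4K5ac reads in FC and 6 in CON, a log2 ratio of 1.85 (0.47 to 3.46), with 0.12 in input. Its promoter, with 20 and 10 reads, was at 1.19 (0.02 to 2.44). Hoxa4, a gene of the neck region, had 12 and 4 reads in its body, giving 1.77 (0.05 to 3.86) with 0.37 in input, and 0.60 (-1.12 to 2.41) in its promoter. Hoxc12, a posterior gene, had 17 and 7 reads, giving 1.47 (0.12 to 2.98) with 1.06 in input, and 0.19 (-0.91 to 1.28) in its promoter. Of the 38, Hoxa4, Hoxb6, Hoxb9 and Hoxb13 were past 1.5-fold higher in both body and promoter, as were 0.889% of all genes. Hoxb9 had 32 and 17 body reads, at 1.10 (0.21 to 2.04), but 1.06 in input. Hoxd8 had 18 and 9, at 1.19 (-0.04 to 2.52). In input it was the 1 body past 1.5-fold lower in FC, at -0.91 (-1.69 to -0.15), against 5.31% of all genes. The body interval lay above 0 for 11 of 38 members, against 15.3% of all genes, and these include the long, deeper Hoxa3 (309 and 253 reads, 0.47, interval 0.23 to 0.72), Hoxb3 (155 and 126 reads, 0.49, interval 0.14 to 0.84) and Hoxd3 (235 and 215 reads, 0.31, interval 0.04 to 0.59). In input these 3 group 3 genes were at 0.38, 0.60 and 0.37. Hoxc4 and Hoxc6, also long, were at -0.17 (-0.57 to 0.24) and 0.02 (-0.40 to 0.43) in H4K5ac-ChIP, with 0.36 and 0.26 in input.

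Hoxb5, a gene of vagal neural crest and axial patterning, went the other way. Its body held 14 H4K5ac reads in FC and 38 in CON, with 12 and 17 of IgG and 76 and 44 of input, a ratio of -1.25 (-2.25 to -0.34) in H4K5ac-ChIP and of 0.42 in input. Its promoter held 6 and 15 reads, at -1.14 (-2.79 to 0.31). In CON, the Hoxb5 body was at IgG level, 0.04 (-0.82 to 0.95), and in FC it was at -0.90 (-2.12 to 0.35). The neighbours Hoxb4 and Hoxb6 were at 0.25 (-0.68 to 1.19) and 0.66 (0.12 to 1.20) in FC over CON, so the lower value was not shared by the genes beside it. Next lowest were the bodies of Hoxb2, at -0.48 (-1.65 to 0.64), and Hoxc11, at -0.21 (-1.24 to 0.80), whose intervals held 0. Hoxb5 was the 1 body with an interval wholly below 0, against 9.52% of all genes.

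The promoters past 1.5-fold higher in FC were Hoxa4, Hoxa5, Hoxa10, Hoxa11, Hoxb4, Hoxb6, Hoxb7, Hoxb9, Hoxb13, Hoxc4, Hoxc10, Hoxc11, Hoxd1, Hoxd3, Hoxd9 and Hoxd13, and the interval lay above 0 for 4 of them, against 7.15% of all promoters. Promoter ratios of FC over CON were largest at Hoxd13, with 16 and 6 reads and 1.60 (0.17 to 3.24), at Hoxb6, with 21 and 9 reads and 1.41 (0.22 to 2.72), and at Hoxb7, with 18 and 8 reads and 1.36 (0.08 to 2.77). Their inputs were at 0.39, 0.89 and 0.33. The body of Hoxd13 did not share the promoter's difference, with 13 and 15 reads and -0.02 (-1.21 to 1.15). Besides Hoxb5, the smallest promoter ratios were Hoxa7, with 12 and 25 reads and -0.87 (-2.0 to 0.17), and Hoxc5, with 12 and 19 reads and -0.48 (-1.65 to 0.64). Hoxa7 went in opposite directions in body and promoter, since its body, with 67 and 38 reads, was at 1.00 (0.41 to 1.62). The plot of FC over CON gives body and promoter of each member beside input and IgG.

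**Figure D5:**
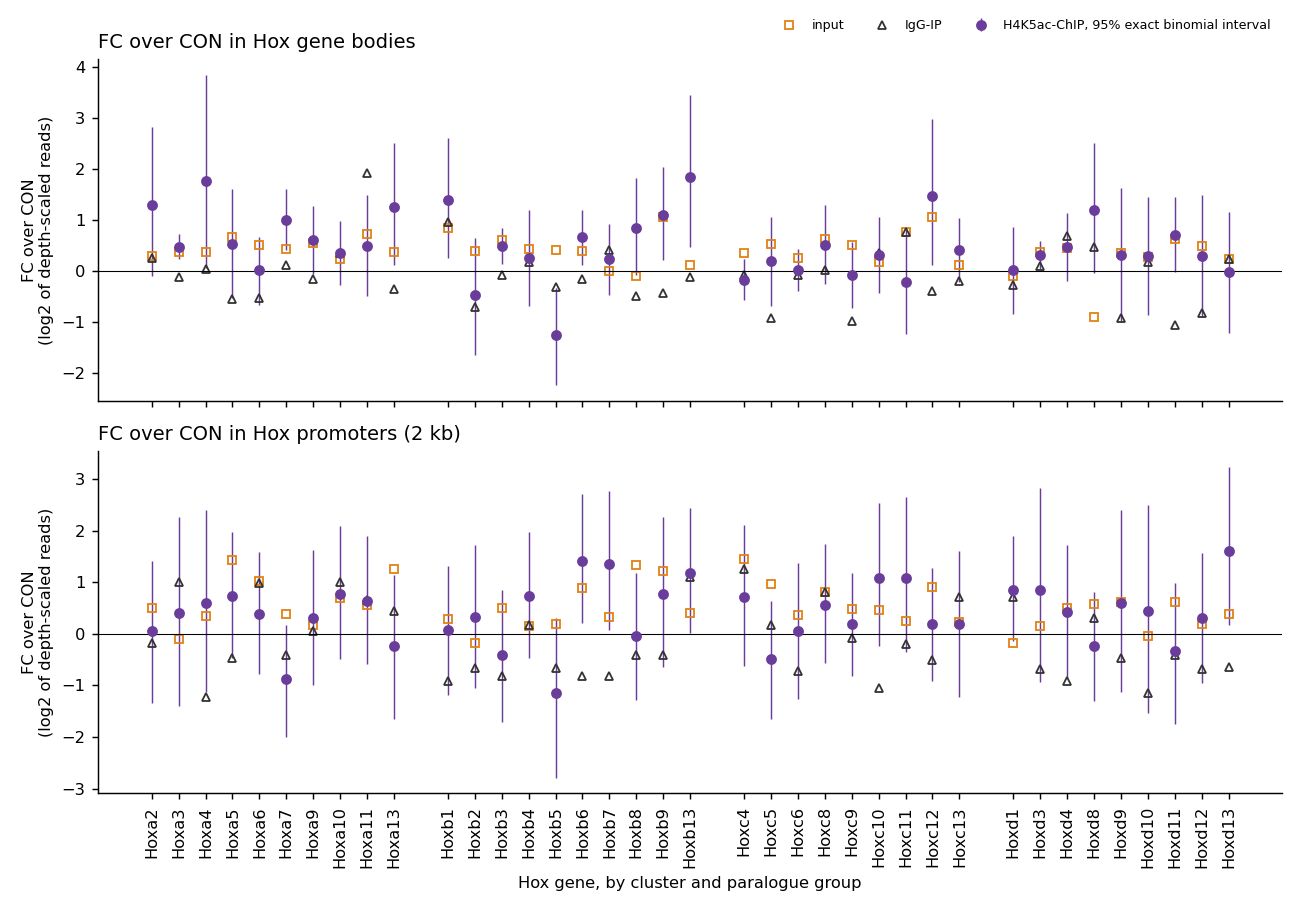
Log2 ratio of FC over CON for each Hox gene in H4K5ac-ChIP (purple, 95% exact binomial interval), input (orange squares) and IgG-IP (black triangles), in bodies (top) and promoters of 2 kb (bottom). Most H4K5ac points lie above 0, 32 of 38 in bodies, as do 34 of 38 input points, and Hoxb5 is the body whose interval lies below 0.

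By cluster, the body medians of FC over CON in H4K5ac-ChIP were 0.56 in HoxA, 0.57 in HoxB, 0.19 in HoxC and 0.31 in HoxD, beside 0.41, 0.41, 0.51 and 0.35 in input. Over the whole spans, H4K5ac-ChIP gave 0.41 (0.24 to 0.59) in HoxA, 0.44 (0.31 to 0.57) in HoxB, 0.11 (-0.04 to 0.27) in HoxC and 0.30 (0.13 to 0.47) in HoxD, and input gave 0.40, 0.45, 0.41 and 0.33. The interval for H4K5ac held 0 in HoxC and in none of the other clusters. Whether the clusters differ from each other was not tested. In the flanks of 100 kb on either side of the clusters, H4K5ac was at 0.11 (0.07 to 0.16) and input at 0.22 (0.18 to 0.25). Of the other silent developmental factors, the median FC over CON ratio in bodies was 0.35 with 0.43 in input, and of TALE cofactors 0.13 with 0.34 in input.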

How the data were processed

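H4K5ac-ChIP, IgG-IP and input of FC and CON hippocampus were sequenced as 6 libraries on the SOLiD platform. The authors aligned the reads to mm9 with Bioscope and deposited 1 line per aligned read of 25 to 50 bp, whose only value is a mapping quality score, deposited without normalization. Depth is given in the report. IgG-IP has the fewest reads, and repeated positions made up 11.5% to 17.8% of reads and were kept.

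Reads overlapping a feature by at least 1 bp were counted over GENCODE gene bodies, promoters (2 kb upstream of the TSS) and cluster spans with flanks of 100 kb, and scaled by total reads. With 1 library per group there was no test. Log2 ratios carry exact (Clopper-Pearson) 95% binomial intervals and densities exact Poisson intervals. These cover counting error only, since there was 1 library per group and antibody. Reads carried no molecular identifiers, so copies of 1 fragment could not be told from separate fragments and the intervals may be too narrow. A feature was called past 1.5-fold with at least 10 reads in the 2 libraries together, beside the same over all protein-coding genes. Ratios were tested on simulated data. The members and lists were chosen with earlier results of these data known. The text names the members at cluster ends, the highest and lowest of each cluster by the mean of both groups, the 3 largest and 3 smallest FC over CON ratios, members past 1.5-fold, the extremes of each list and the flanking genes. The printed promoters, the paralogue classes, the edge distances and the ranking by level were chosen after values were seen. Mll genes are named as this annotation names them, and no gene was found there under Kmt2a, Kmt2b or Kmt2c. Repeats were not masked. Alternatives varied repeated positions, mapping quality, read assignment, control library, scaling, promoter, start site, fold, background and flank. Python 3.11.15, NumPy 2.4.6, SciPy 1.17.1, pandas 2.3.3, pyarrow 21.0.0 and matplotlib 3.10.9 were used.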

Additional observations from a re-analysis of the deposited data

How the results depend on the processing

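Of 156 values recomputed under an alternative, 98 stayed within a set range, 56 moved beyond it and 2 changed sign. For counts and shares the range was a factor of 1.5. For spans and flanks it was the counting interval. For medians it was the width of the interval of the summed reads, set around the median. For the span less both flanks it was a width combined from the intervals of both. No paired analysis was possible because each group had 1 library per antibody, and no replicate could be left out. With a mapping quality of at least 20, the body medians over IgG were -0.91 in FC and -1.44 in CON, the CON promoter median -1.49, the cluster spans -1.0 and -1.44, and the CON span less flanks -0.84. With input in place of IgG, the body medians were -1.41 and -1.47, the FC promoter median -1.52, the spans -1.49 and -1.40, the FC span less flanks -0.75, and 35 bodies and 35 promoters were called lower in FC (all genes 21.6% and 20.0%). Scaling by the median ratio of 10 kb windows moved the median of all bodies from 0.67 to 0.84 in FC and from 0.58 to 0.75 in CON, gave Hox body medians of -0.51 and -1.04 and spans of -0.66 and -1.07, and turned the FC 3' flanks from -0.08 to 0.10. Promoters of 5 kb gave -0.98 in FC and 1 promoter over 50 reads. Flanks of 50 kb brought the span less flanks to -0.07 and -0.25. At 2-fold, 10 bodies and 12 promoters were called lower in FC (all genes 10.9% and 12.4%), and 6 promoters higher in FC over CON (2.76%), as a stricter fold leaves fewer. Genes in the GC range of the members took the share called lower among background genes to 5.14% and 6.71% for bodies and 6.12% and 7.61% for promoters. For FC over CON, subtracting input gave a body median of 0.02 with 6 called higher and 4 lower (all genes 6.05% and 16.8%), and a promoter median of -0.06, which changed sign, with 7 higher and 12 lower (13.5% and 27.8%), while subtracting IgG gave a body median of 0.57. Except where the construction of the alternative shows it, the cause was not tested. Few reads limit single members: 5 to 25 H4K5ac reads in a promoter leave intervals of several log2 units.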
